A study of Homo sapiens with 9 samples.

Results

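PLK2 (polo-like kinase 2) carrying the substitution D223N in its kinase domain was overexpressed in HEK293T cells and compared with a control vector. HEK293T is a human embryonic kidney line that is easily transfected and makes the SV40 large T antigen. The comparison rests on 6 of the 9 RNA sequencing libraries of the series, chosen by their labels: 3 named Vector and 3 named PLK2(D223N). The other 3, named PLK2, carried the intact kinase and were used to test where the mutant differed from it. All 9 came from cells labelled wild type, and the labels name a FLAG tag for each construct. Per the series design, the 3 libraries of a group were biological replicates. For how long and from which promoter the constructs were expressed is not stated there, and these libraries give neither protein level nor kinase activity. The cells keep their own PLK2 gene, and a count of PLK2 RNA does not tell the construct from the gene.

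Polo-like kinases phosphorylate serine and threonine on proteins of the cell cycle. They share a kinase domain, which carries the catalysis, and a polo-box domain, which binds partner proteins. PLK2 is itself a stress- and activity-induced gene that is known for roles in centriole duplication and, in neurons, in synaptic scaling. The series title places it in microglial activation, upstream of IKKβ, the kinase that frees NF-kB from its inhibitors, and together with HSP90α, a chaperone of many kinases. A mutant of the kinase domain asks which RNA changes appear although that domain is altered, and which do not.

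Few genes differed between PLK2(D223N) and Vector. Of 12924 genes with enough counts to test, edgeR's quasi-likelihood test called 3 at a Benjamini-Hochberg adjusted p below 0.05, which is 0.0232%. All 3 were higher with the mutant: PLK2 itself, EGR1 and ATF3. EGR1 and ATF3 encode transcription factors of the early response to growth factors and stress. The test called no gene lower, DESeq2 called 1 among 7 in all (0.041%), and at an unadjusted p below 0.05 edgeR had 675 higher genes (5.22%) and 427 lower genes (3.3%). The libraries of the groups did not overlap for 861 genes that were higher (6.66%) and 932 that were lower (7.21%).

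The promoter of EGR1 is shown because EGR1 was the gene other than PLK2 that every setting called. Those of NFKBIA and TNFAIP3 are shown as genes called between the mutant and the intact kinase, chosen after their values were seen. The NFKBIA call was lost in 7 of 9 fits with 1 library left out. Each stretch is the 250 bases before the transcription start in RefSeq (GRCh38.p14), 5′ to 3′ on the gene's strand. Capitals in EGR1 (chr5:138465229-138465478, plus strand) mark CArG boxes, the element read by serum response factor, CRE half-sites, read by the CREB and ATF family, and an EGR site. Capitals in NFKBIA (chr14:35404750-35404999, minus strand) and TNFAIP3 (chr6:137867009-137867258, plus strand) mark matches to the NF-kB consensus.
EGR1: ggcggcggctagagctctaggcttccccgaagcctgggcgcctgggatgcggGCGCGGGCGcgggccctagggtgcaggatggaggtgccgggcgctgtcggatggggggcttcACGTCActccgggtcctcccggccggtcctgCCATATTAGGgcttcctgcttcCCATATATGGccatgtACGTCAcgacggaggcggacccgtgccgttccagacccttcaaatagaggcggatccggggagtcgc
NFKBIA: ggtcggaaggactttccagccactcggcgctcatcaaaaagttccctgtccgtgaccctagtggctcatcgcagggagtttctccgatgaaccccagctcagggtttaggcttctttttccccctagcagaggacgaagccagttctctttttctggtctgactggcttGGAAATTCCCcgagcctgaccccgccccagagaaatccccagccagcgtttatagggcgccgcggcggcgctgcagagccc
TNFAIP3: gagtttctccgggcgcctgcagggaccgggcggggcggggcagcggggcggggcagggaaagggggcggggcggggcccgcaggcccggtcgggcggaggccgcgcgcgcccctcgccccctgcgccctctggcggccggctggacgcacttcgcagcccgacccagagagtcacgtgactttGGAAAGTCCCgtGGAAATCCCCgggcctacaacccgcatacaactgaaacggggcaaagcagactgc

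The EGR1 stretch held 2 CArG boxes, CCATATTAGG and CCATATATGG, which begin 105 and 83 bases before the start. It also held 2 CRE half-sites, at 136 and 67 bases, and 1 EGR site, at 198 bases. Both strands were searched, with TGACGT for the half-site, GCGNGGGCG for the EGR site and TGANTCA for AP-1, and the CArG box and NF-kB consensus by their usual degenerate letters. Among 15662 starts of tested genes, 1.1% of such stretches held a CArG box, 9.19% a CRE half-site, 13.2% an EGR site, 5.92% an NF-kB match and 4.33% an AP-1 site. The 2 RefSeq stretches of ATF3 held none of the 5, which says only that these letters are not in those windows. A match is a description of the sequence and not a measured binding site.

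PLK2 was measured first, since it checks the labels of construct and Vector. It stood at 3.33, 4.09 and 2.83 CPM (counts divided by library size, with TMM scaling factors) in the Vector libraries and at 13978, 10680 and 12416 in the PLK2(D223N) libraries. Each library followed its label as construct or Vector, and the log2 fold change was 11.83 (SE 0.16, edgeR adjusted p = 1.00e-16). Gene counts do not show the substitution D223N, so the label of mutant against intact kinase was not checked. PLK2 is set aside in what follows.

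EGR1, a zinc finger factor that growth factor signalling induces within minutes, was the clearest change. It stood at 2.67, 2.71 and 2.70 CPM in the Vector libraries and at 6.64, 5.31 and 6.33 CPM in the PLK2(D223N) libraries. All 3 mutant libraries lay above all 3 controls. The controls were nearly equal, but on 128 counts together this closeness is not read as a small spread. The log2 fold change was 1.18 (SE 0.14, 95% interval 0.88 to 1.47), or 2.26-fold, with an adjusted p of 0.00228 by edgeR. EGR1 passed in each of the 18 alternative settings run, with log2 fold changes between 0.88 and 1.26, the lowest on the log2(TPM + 1) scale. The values rest on 128 counts in the 3 control libraries together and 296 in the 3 mutant libraries. EGR1 lies on chromosome 5, from 138465490 to 138469315 in GENCODE release 29 (GRCh38).

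EGR1 was at 5.64, 5.19 and 5.89 CPM in the libraries with the intact kinase, within or just below the range of the mutant. The difference between mutant and intact kinase was 0.13 on the log2 scale (SE 0.12, 95% interval -0.13 to 0.38, edgeR adjusted p = 0.943). That interval includes differences in either direction and does not show that the forms act alike. Against the same Vector libraries, the intact kinase gave 1.05 (adjusted p = 0.00237).

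ATF3, a bZIP repressor and activator induced by many stresses, stood at 69.1, 57.3 and 58.9 CPM in the Vector libraries. In the PLK2(D223N) libraries it stood at 91.0, 80.9 and 86.8 CPM, and the groups did not overlap. The log2 fold change was 0.48 (SE 0.07, 95% interval 0.33 to 0.63, edgeR adjusted p = 0.0261). This call was less firm than that of EGR1. It was lost in 8 of 18 alternatives, while the fold change stayed between 0.43 and 0.57. Adjusted p was 0.17 without Vector replicate 3, 0.27, 0.0563 and 0.18 without PLK2(D223N) replicate 1, 2 and 3, and 0.103, 0.119 and 0.119 without PLK2 replicate 1, 2 and 3. In a fit to the 6 libraries alone it was 0.439. With the intact kinase ATF3 stood at 73.8, 74.8 and 71.3 CPM, below each mutant library, but the difference of 0.23 (SE 0.07) did not pass (adjusted p = 0.446).

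**Figure D1:**
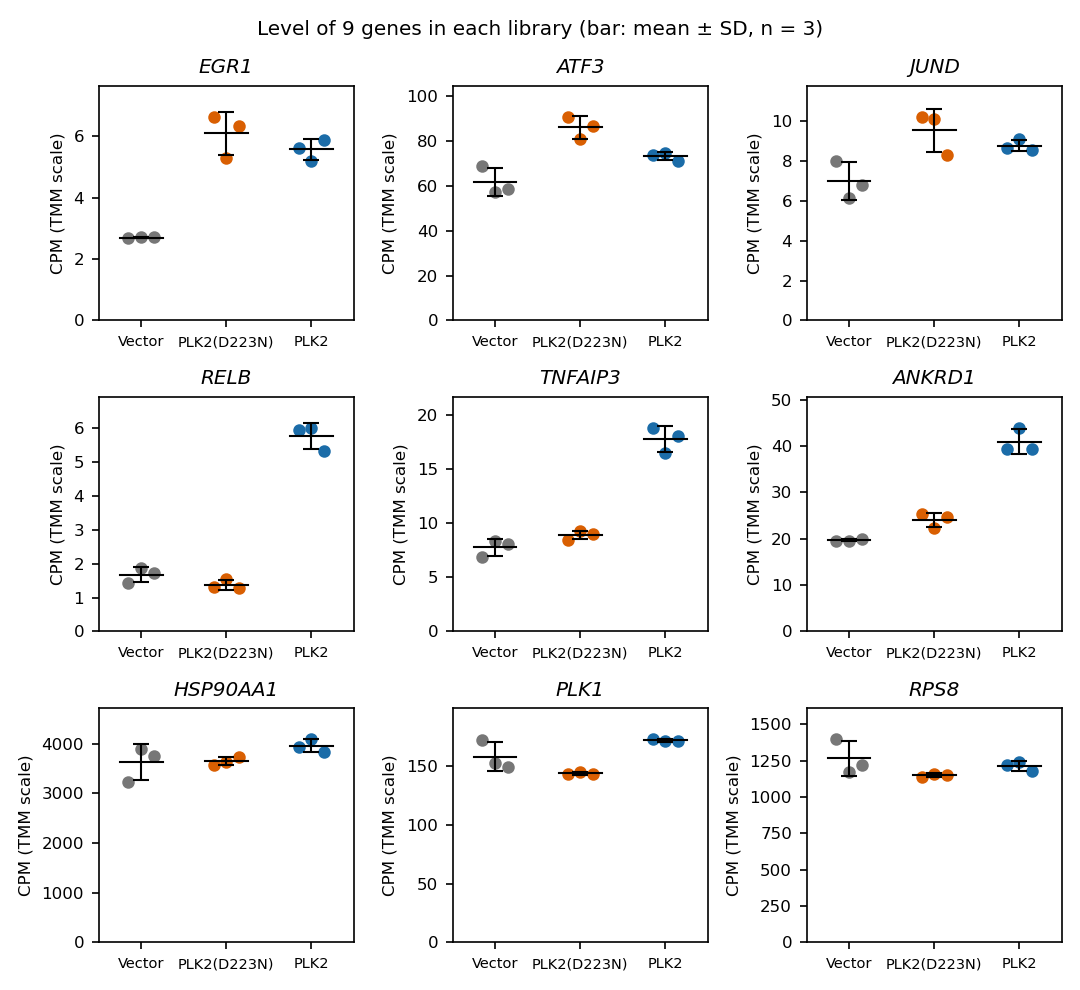
Level of 9 genes in each library, in CPM on the TMM scale (linear axes from 0), for Vector (grey), PLK2(D223N) (orange) and PLK2 (blue). Bars give the mean and SD of 3 libraries. EGR1 and ATF3 are higher in all PLK2(D223N) libraries than in Vector, RELB, TNFAIP3 and ANKRD1 are highest with intact PLK2, and HSP90AA1 overlaps between Vector and PLK2(D223N).

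The relatives of both genes did not move with them as a group. In the list of EGR factors and NAB corepressors, which bind EGR proteins, 3 of 6 genes could be tested and only EGR1 passed. NAB1 was at 0.08 and NAB2 at -0.06 on the log2 scale. EGR2 had 10 counts in Vector and 7 in mutant libraries, EGR3 had 13 and 19, and EGR4 had 0 in both, all too few to test. Of 34 AP-1, ATF and other immediate-early genes, ATF3 alone passed, 17 were above 0, and the median was 0.001, beside 0.008 for all tested genes.

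JUND, a subunit of the AP-1 dimer, came next in that list. It stood at 8.02, 6.17 and 6.82 CPM in Vector and at 10.2, 10.1 and 8.30 in PLK2(D223N) libraries. The libraries did not overlap, but the log2 fold change of 0.44 (SE 0.12) had an adjusted p of 0.53 by edgeR. FOS, the usual partner of JUN in AP-1 and a target of serum response factor like EGR1, was at 0.10 with a 95% interval from -0.29 to 0.48. JUN was at 0.10 (-0.03 to 0.24) and MYC at -0.12 (-0.25 to 0.00). Several others had values below 0, among them ID1 at -0.23 and the matricellular genes CCN1 and CCN2, both at -0.20.

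The ERK feedback genes, which growth factor signalling induces to limit itself, held no called member among 19 tested. DUSP1, a phosphatase for MAP kinases, was at 0.16 (95% interval -0.03 to 0.35) and EPHA2, a receptor tyrosine kinase, at 0.22 (0.03 to 0.41). DUSP6 had 15 counts in Vector and 22 in mutant libraries and could not be tested. Bulk RNA gives an average over the culture, so a change in a few cells and a smaller change in all of them cannot be told apart.

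A call that is not made does not show that a gene stayed level, so the size of change that the data allow was taken from 95% intervals. The interval lay within a 2-fold change either way for 12415 tested genes (96.1%) and within a 1.5-fold change for 11275 (87.2%). The median distance from the estimate to either end of the interval was 0.168 on the log2 scale. Where the mean reached 10 CPM, 99.7% of 9468 genes were bounded within 1.5-fold. Of the 508 genes not bounded within 2-fold, 367 had a mean under 1 CPM, where few reads were counted.

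Large estimates were rare. With PLK2 aside, 22 genes had a log2 fold change of at least 1 in size, and 18 of these had a mean under 1 CPM. The other 4 were EGR1, TMEM100 at 1.20, RGPD2 at 1.32 and SULT1A4 at 7.42, and the last 3 had adjusted p between 0.453 and 0.608. RGPD2 and SULT1A4 have near-identical copies among which reads can be split, and the interval of SULT1A4 ran from -3.42 to 18.27. With PLK2 aside, 2 genes had an interval wholly outside a 2-fold change. SOX30, a transcription factor of the germ line, was 1 of them, at 2.08 (interval 1.10 to 3.05) with an edgeR adjusted p of 0.357. Its mean was only 0.605 CPM.

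Functions were then read from 31 gene lists with 936 tested members. In 13 lists every tested member was bounded within 1.5-fold, beside 87.2% of all tested genes and 99.7% of those with a mean of at least 10 CPM. Full bounding of a list is near the second share and is not read as particular to its function. One holds the 3 polo-like kinases other than PLK2 that could be tested. The other 12 were HSP90 and its co-chaperones (23 genes), G1/S and DNA replication (49), G2/M and mitosis (52), centriole and centrosome (30), cholesterol and fatty acid synthesis (34), glycolysis and hypoxia (34), autophagy and lysosome (39), cytosolic ribosomal proteins (77), translation initiation and tRNA synthetases (41), spliceosome (40), nuclear oxidative phosphorylation (48) and the proteasome (35). No member of these 12 was called. The lowest number bounded, over the 17 alternatives on counts, was 2 of 3 for the polo-like kinases, 27 of 30 for the centriole list, 50 of 52 for G2/M, 32 of 34 for glycolysis, 37 of 39 for autophagy, 76 of 77 for the ribosomal list and 47 of 48 for oxidative phosphorylation, and the other 6 kept every member within these bounds.

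**Figure D2:**
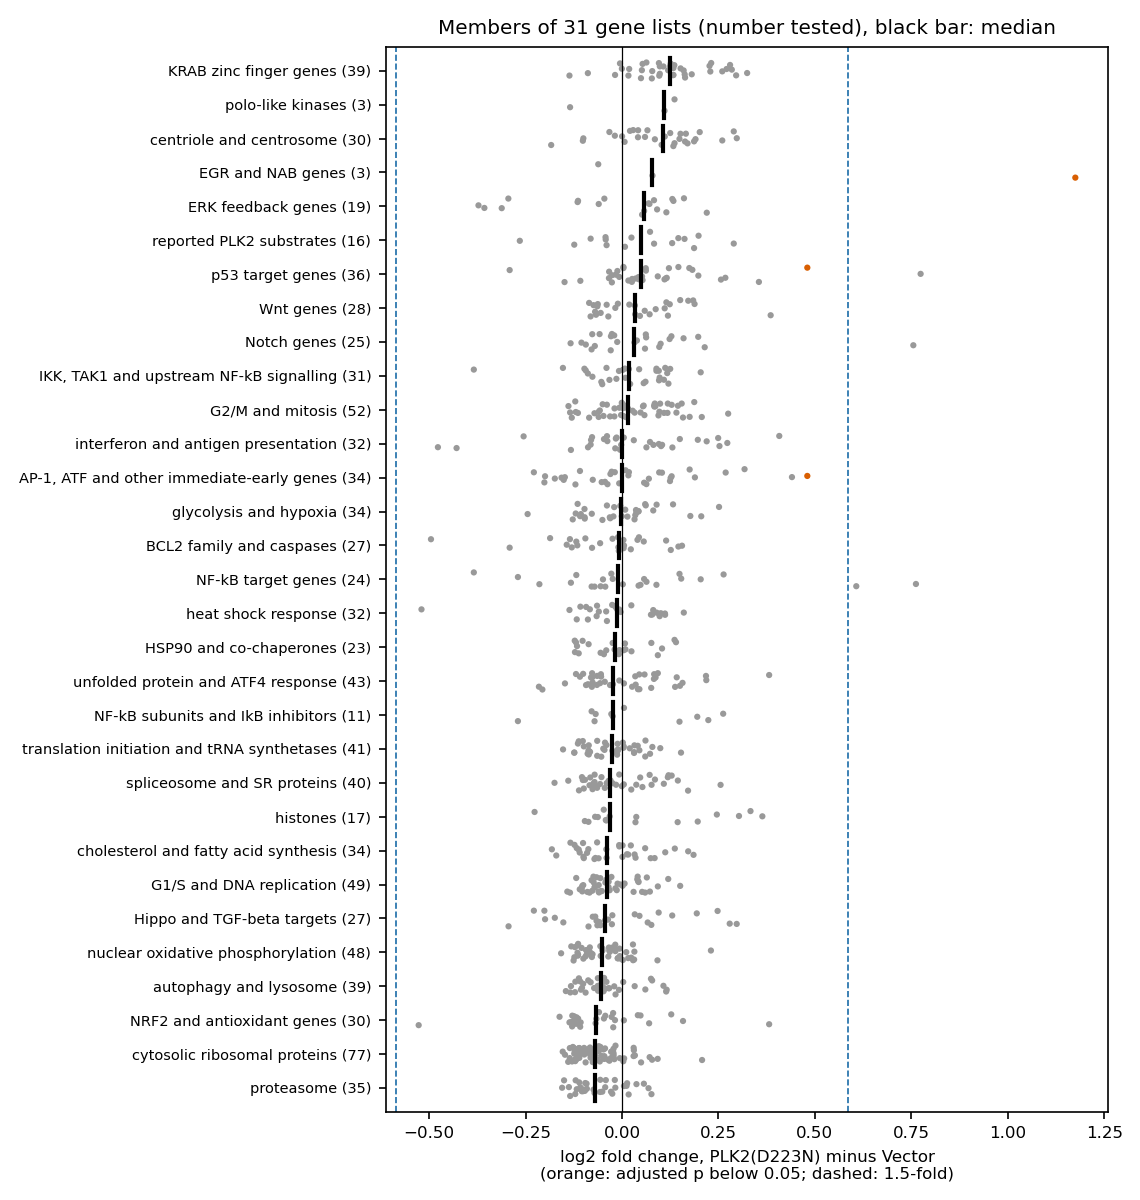
Log2 fold change of PLK2(D223N) minus Vector for each tested member of 31 gene lists, with PLK2 left out. Each point is a gene, black bars are list medians, orange points have an adjusted p below 0.05 (EGR1, and ATF3 in 2 lists), and dashed lines mark a 1.5-fold change. List medians lie between -0.071 and 0.125.

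The chaperone and kinase named in the series title were level within narrow bounds. HSP90AA1, which encodes HSP90α, stood at 3221, 3900.1 and 3758 CPM in Vector and at 3579, 3628 and 3730.2 in PLK2(D223N) libraries. The mutant libraries lay inside the control range, and the log2 fold change was 0.01 (95% interval -0.13 to 0.14). HSP90AB1, the constitutive form, was at -0.12 (-0.22 to -0.02, adjusted p = 0.574). IKBKB, which encodes IKKβ, stood at 40.9, 35.4 and 33.7 CPM in Vector and at 37.9, 38.3 and 38.2 in mutant libraries, or 0.06 on the log2 scale (-0.10 to 0.21).

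NF-kB genes showed no call but were less tightly bounded. None of the 11 subunits and inhibitors passed, and 9 were bounded within 1.5-fold. RELA, the main activating subunit, was at -0.07 (95% interval -0.23 to 0.09) and NFKB1 at -0.03 (-0.14 to 0.09). Of 40 target genes in the table, 24 were tested, none passed, and 17 were bounded within 1.5-fold. The other 16 were too low, among them the chemokines CXCL8, with 2 counts in Vector and 1 in mutant libraries, and CCL2, with 0 and 1. The cytokine IL6 had 1 and 3. What the mutant did to such genes was not detectable at this depth. CSF1, a macrophage growth factor, had the smallest p of the list at 0.26 (0.06 to 0.46, adjusted p = 0.574).

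Among kinases of the same family, PLK1, the mitotic kinase, was at -0.13 (95% interval -0.26 to -0.01, adjusted p = 0.574), PLK3 at 0.11 (-0.30 to 0.53) and PLK4, the trigger of centriole duplication, at 0.14 (-0.06 to 0.33). PLK5 had 2 counts in Vector and 4 in mutant libraries.

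Stress programmes around ATF3 showed no other call. Among 43 tested for the unfolded protein response and ATF4, none passed and 41 were bounded within 1.5-fold. SLC7A11, a cystine transporter, stood at 47.0, 70.2 and 59.7 CPM in Vector and at 74.4, 77.9 and 77.4 in mutant libraries, 0.38 apart on the log2 scale (SE 0.10, edgeR adjusted p = 0.53). Of 36 p53 targets only ATF3, which is also on this list, passed. CDKN1A, the cell cycle inhibitor p21, was at 0.26 (95% interval -0.0019 to 0.515) and MDM2, the ligase that degrades p53, at 0.20 (0.03 to 0.37). Of 32 heat shock genes none passed and 31 were bounded within 1.5-fold, all but HSPA6. Interferon genes were bounded within 1.5-fold for 23 of 32 and histones for 13 of 17, with none called.

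The genes with the smallest p among those not called are given for each direction. The 8 higher ones, with adjusted p between 0.137 and 0.35, were BICRA, a subunit of a SWI/SNF complex (0.41, adjusted p = 0.137), CREB5, a CRE-binding factor (0.39, adjusted p = 0.197), GOLGA8B (0.41), MS4A4E (0.39), HHIPL2 (0.76), ACAD11 (0.34), OR6C74 (0.65) and ZNF525 (0.59). CREB5 stood at 32.6, 40.0 and 37.7 CPM in Vector and at 46.9, 51.1 and 46.1 in mutant libraries. GOLGA8B has a close copy in GOLGA8A. The 8 lower ones reached adjusted p up to 0.568. They were DERPC (-0.52, adjusted p = 0.128), KCNAB1, a potassium channel subunit (-0.62, adjusted p = 0.261), FKBPL (-0.35, adjusted p = 0.502), ZDHHC9 (-0.23), TOR3A (-0.21), PIP4K2C (-0.21), OPA3 (-0.25) and FLYWCH2 (-0.33). DERPC shares its RefSeq interval with CHTF8, on chromosome 16 from 69118010 to 69132588 (GRCh38.p14), and CHTF8 was at 0.26, so how reads were divided between them is uncertain.

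How many genes passed depended on which control libraries were used. The median SD of log2 CPM over 9469 genes was 0.113 among controls, 0.045 with the mutant and 0.05 with the intact kinase. Vector replicate 1 had fewer reads from genes of low GC content, with a median deviation of -0.249 on the log2 scale in the quintile of lowest GC content and 0.153 in the quintile of highest. Vector replicate 2 leaned the other way, at 0.047 and -0.075. Without Vector replicate 1, 21 genes were called (0.161%), and without Vector replicate 2, 347 were (2.66%), 323 of them higher. Of the 322 higher ones other than PLK2, 10 were also higher without Vector replicate 1, and 240 lay in the quintile of lowest GC content. Their median GC content was 38.5%, beside 48.1% for tested genes. After removal of GC and length trends, an alternative chosen after seeing the data, 8 genes were called (0.0619%), all higher: PLK2, EGR1, ATF3, CREB5, HHIPL2, ACAD11, GOLGA8B and MS4A4E. The part of GC content in single calls was not tested.

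**Figure D3:**
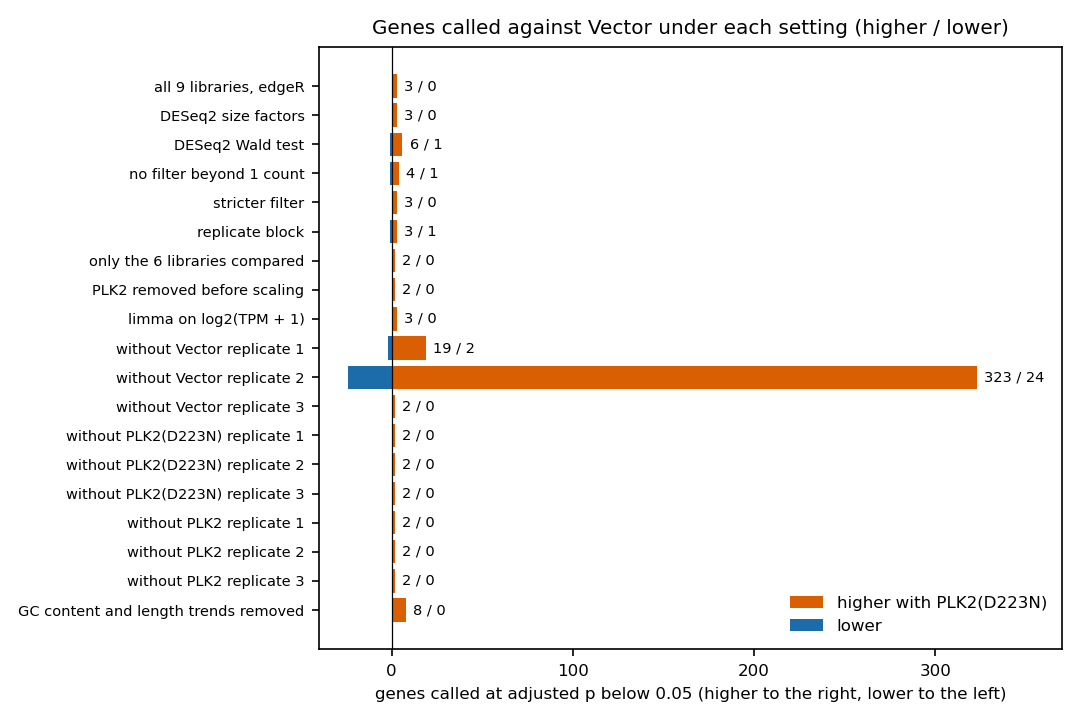
Number of genes called against Vector (adjusted p below 0.05) under the setting used and 18 alternatives, with higher genes to the right and lower genes to the left of 0, PLK2 included. Counts lie between 2 and 8 except without Vector replicate 1 (21) and without Vector replicate 2 (347).

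**Figure D4:**
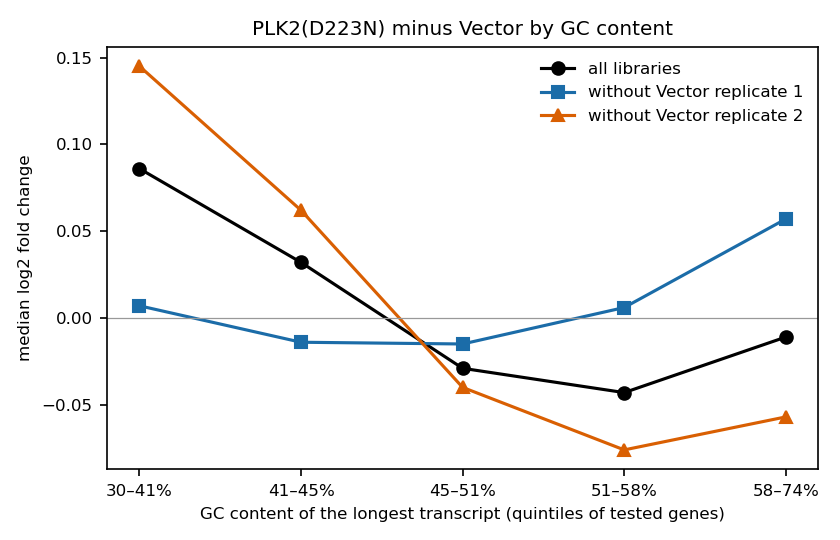
Median log2 fold change of PLK2(D223N) minus Vector in quintiles of tested genes by GC content of the longest transcript, with all libraries (black), without Vector replicate 1 (blue) and without Vector replicate 2 (orange). The lowest quintile is at 0.086, 0.007 and 0.145 and the highest at -0.011, 0.057 and -0.057.

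Small shifts of whole lists moved with the same libraries. The zinc finger genes of the KRAB class, which silence transposons and are poor in GC, had a median of 0.125 with 34 of 39 above 0. Without Vector replicate 1 the median was 0.024, without Vector replicate 2 it was 0.179, and after removal of GC and length trends 0.058. The centriole and centrosome genes had 0.107, then 0.012, 0.175 and 0.036 in the same order. CEP152, a scaffold of centriole duplication, showed the same: 25.2 CPM in Vector replicate 1, 40.0 and 36.4 in the other controls, and 40.5, 40.1 and 43.0 in the mutant libraries. The ribosomal protein genes had a median of -0.069 with 11 of 77 above 0, then -0.011, -0.132 and -0.06. No gene of these 3 lists was called with all libraries.

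The mutant was then tested against the intact kinase, which does not use the level of the Vector libraries. The test called 21 genes (0.162%), of which 20 were lower with PLK2(D223N) (0.155%) and 1, the homeobox gene HOXB6, was higher (0.00774%). PLK2 RNA was at 12358 CPM (SD 1650.2, n = 3) with the mutant and 23744 CPM (SD 2384, n = 3) with the intact kinase, a log2 difference of -0.94, and a lower dose and an altered kinase domain cannot be told apart. Fitted to those 6 libraries alone, whose replicates lay closer together, the test called 502 genes (3.92%), 374 lower and 128 higher. Without Vector replicate 1 it called 317 (2.43%).

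Some genes of NF-kB signalling were among those lower with the mutant than with the intact kinase. RELB, a subunit of the non-canonical pathway, stood at 1.43, 1.87 and 1.72 CPM in Vector, at 1.304, 1.54 and 1.29 with the mutant, and at 5.95, 6.03 and 5.33 with the intact kinase. Mutant against intact gave -2.06 on the log2 scale (SE 0.16, edgeR adjusted p = 1.14e-05). TNFAIP3, the A20 enzyme that shuts NF-kB off, stood at 6.89, 8.32 and 8.11 CPM in Vector, at 8.51, 9.32 and 8.97 with the mutant, and at 18.9, 16.5 and 18.1 with the intact kinase (-0.997, SE 0.09, adjusted p = 3.72e-05). All 3 mutant libraries lay above the controls for TNFAIP3 and below the intact kinase. TNFRSF9, the costimulatory receptor 4-1BB, was at -4.18 (adjusted p = 8.06e-06), and NFKB2, NFKBIA and CYLD were also lower. In all, 6 of 24 tested NF-kB targets were lower than with the intact kinase, beside 0.155% of all tested genes. The lists were chosen with earlier results of these data known, so this count is not independent support. TNFRSF9 had 7 counts in Vector, 8 with the mutant and 148 with the intact kinase, and entered the test through the intact libraries. Of 31 genes of IKK, TAK1 and other upstream signalling, 2 were lower, with a list median of 0.019.

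The intervals against Vector give the size of a rise in these genes that the mutant data allow. TNFAIP3 with the mutant was at 0.20 against Vector (95% interval -0.02 to 0.43), beside 1.20 (0.9996 to 1.403) for the intact kinase against the same libraries. NFKBIA, the inhibitor that IKKβ marks for destruction, was at -0.07 (-0.26 to 0.12) beside 0.40 (0.22 to 0.59, adjusted p = 0.0511 by edgeR). RELB was at -0.27 (-0.70 to 0.16) beside 1.79 (1.46 to 2.12). TNFRSF9 and HSPA6 had too few counts with the mutant to be bounded within 2-fold.

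ANKRD1, a target of the Hippo effectors YAP and TAZ, lay between the groups. It stood at 19.4, 19.6 and 19.9 CPM in Vector, at 25.3, 22.4 and 24.6 with the mutant, and at 39.4, 44.0 and 39.4 with the intact kinase, with no overlap between any pair of groups. The mutant was below the intact kinase (-0.76, SE 0.07, adjusted p = 3.51e-05), while its difference from Vector was 0.30 (SE 0.08, adjusted p = 0.509). DHRS2, PLA2G4C and DNAH17 stood with the controls: their log2 fold changes against Vector were 0.09, 0.11 and -0.03, and against the intact kinase -1.04, -2.35 and -2.90.

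Genes of mitosis were also among those called between the forms. AURKA, a spindle kinase, was lower with the mutant by -0.33 (SE 0.05, adjusted p = 0.0158), and HJURP, which loads the centromeric histone, by -0.38 (adjusted p = 0.0049). Against Vector these were at 0.00 (95% interval -0.11 to 0.12) and -0.03 (-0.15 to 0.09). Of the 52 genes of the G2/M list, 2 were called lower against the intact kinase, beside 0.155% of all tested genes. Below 0 lay 49 of the 52, beside 6189 of all 12923 tested genes other than PLK2, and the medians were -0.151 and 0.005.

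**Figure D5:**
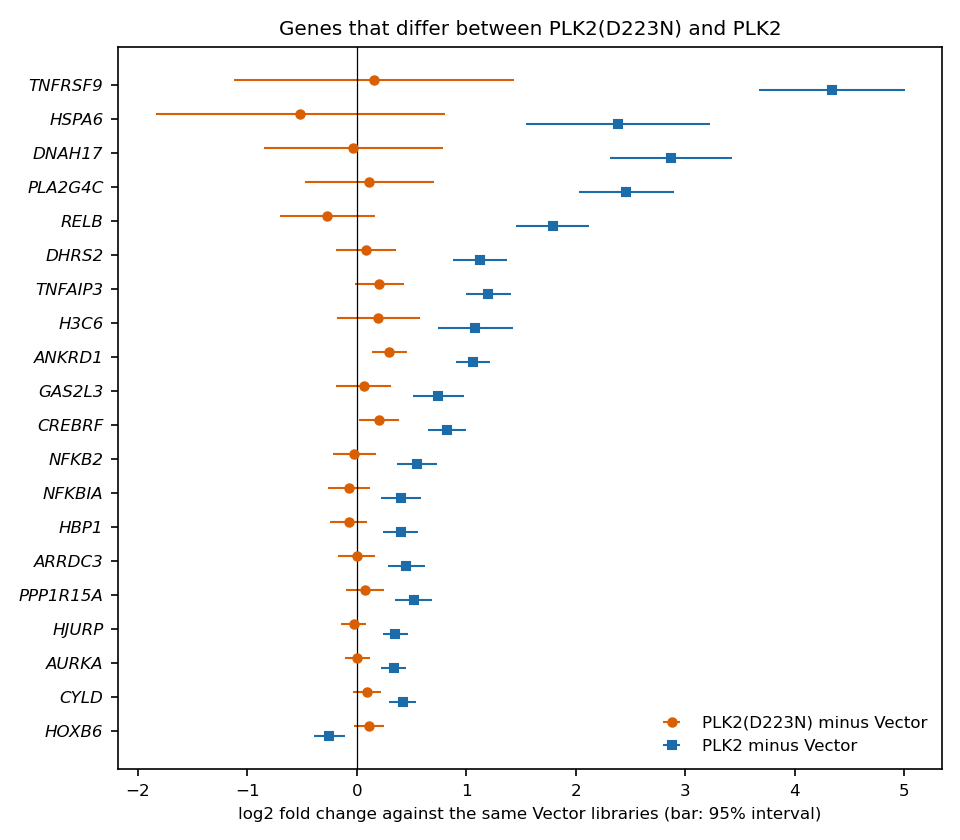
The 20 genes other than PLK2 that differed between PLK2(D223N) and PLK2, with the log2 fold change of each form against the same Vector libraries and its 95% interval. Intervals of PLK2(D223N) (orange) mostly include 0, and those of ANKRD1 and CREBRF lie above it, while PLK2 (blue) lies above 0 for each gene except HOXB6. TNFRSF9 and HSPA6 entered the test through the intact libraries, where they were high.

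With 1 library left out, 8 of these 20 genes passed every time: TNFRSF9, DNAH17, PLA2G4C, RELB, DHRS2, TNFAIP3, ANKRD1 and CREBRF. Of these 8, TNFRSF9 had 7 counts in Vector and 8 with the mutant, and entered the test through the intact libraries, where it was high. The other 12 were lost without at least 1 mutant or intact library, and NFKBIA, PPP1R15A, CYLD and HOXB6 also without Vector replicate 3. HSPA6, 1 of these 12, likewise entered the test through the intact libraries. It stood at 0.36, 0.21 and 0.49 CPM in Vector and at 0.19, 0.06 and 0.49 CPM with the mutant. With the intact kinase it stood at 1.33, 2.05 and 2.32 CPM. The highest adjusted p was 0.343 for NFKBIA, 0.107 for NFKB2, 0.201 for AURKA and 0.064 for HJURP. Of the 19 lower genes, 15 had a RefSeq promoter stretch, and 5 of these held an NF-kB match: CYLD, NFKB2, NFKBIA, TNFAIP3 and TNFRSF9. A CRE half-site, an EGR site and an AP-1 site were each held by 3 of the 15, and a CArG box by 0. The 15 include TNFRSF9 (NF-kB and AP-1) and HSPA6 (AP-1), which entered the test through the intact libraries. The shares over starts given above (5.92% for NF-kB, 9.19%, 13.2%, 4.33% and 1.1%) count single starts, while CYLD and NFKB2 had 3 stretches each, so the counts by gene are not on the same base. In NFKBIA it began 81 bases before the start, and in TNFAIP3 there were 2, at 67 and 55 bases.

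Totals were between 14288165 and 16510186 estimated counts per library. Markers of HEK293 cells summed to 134 to 164 CPM in Vector and 143 to 151 CPM in PLK2(D223N) libraries, with 6 of 9 genes tested. Microglia and macrophage markers summed to 3.09 to 3.67 CPM in Vector, 1.60 to 2.80 with the mutant and 3.16 to 3.24 with the intact kinase. Of these 10 markers, 7 were present among the deposited genes and 2 were tested. ITGAM had the highest level, with 93 counts in Vector, 51 with the mutant and 89 with the intact kinase. TMEM119 had 1 count in Vector and 0 in mutant libraries. Fibroblast markers summed to 88.2 to 92.5 CPM in Vector and 88 to 95.6 CPM in mutant libraries, and epithelial markers to 66.2 to 77.4 and 65.8 to 68.8 CPM. Lymphocyte and endothelial markers stayed at or below 1.19 CPM in Vector and mutant libraries, with 1 of 8 and 0 of 6 tested. No tested marker was called, and for endothelial cells no call was possible.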

How the data were processed

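Polyadenylated RNA of 9 HEK293T libraries was sequenced, per the labels' protocols. Bowtie2, RSEM 1.3.1, DESeq2 1.4.5 and build GRCh38.p13 are named in the submitters' processing notes, without the role of each, the gene models or strandedness. Estimated counts of 17083 genes were deposited and were rounded here. The authors also deposited TPM, used only for one alternative (limma on log2(TPM + 1)). A further 18 columns over the 9 libraries, and 12 columns of averages, were not used. Genes were filtered with filterByExpr, scaled by TMM and tested with edgeR 4.0.16 (glmQLFit, robust) in R 4.3.3 over all 9 libraries, with Benjamini-Hochberg adjustment over 12924 genes. Intervals are at 95%. One control title has transposed letters and was matched by its number. Alternatives used limma 3.58.1, DESeq2 1.42.0, other filters and scalings, a replicate block and each library left out. Same-numbered libraries of mutant and control did not deviate together.

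The members and lists were chosen with earlier results of these data known. Named genes were PLK2, its relatives, HSP90AA1, HSP90AB1 and IKBKB, every called gene, the 8 genes a direction with the smallest p that were not called, those called without either of 2 control libraries, up to 2 genes of each list by p, and the largest differences from the intact kinase. Others were named after their values were seen, including the genes whose promoters are printed. Of the 994 list genes, 990 were found in the table and 936 tested. Identifiers of 17025 genes matched RefSeq. For 12841 tested genes, GENCODE release 29 gave GC content and length. Counting error limits genes with few counts.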

Additional observations from a re-analysis of the deposited data

How the results depend on the processing

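EGR1 kept its direction and its call in 18 of 18 alternatives. The count of genes called between PLK2(D223N) and Vector was 3, and 7 with DESeq2, 5 without a filter and 8 after removal of GC and length trends. It lay between 2 and 347 with 1 library left out. Between PLK2(D223N) and PLK2 the count was 21, and 33 with DESeq2, 35 without a filter, 502 with only the 6 libraries compared, 11 with limma on log2(TPM + 1) and 92 after removal of those trends. It lay between 9 and 317 with 1 library left out. A replicate block gave 4 and 20 calls, adding DERPC (adjusted p = 0.0338 by edgeR). The numbers gave no clear pairing of the libraries: same-numbered deviations of mutant and control correlated at 0.02, -0.04 and -0.11. Those of mutant and intact kinase correlated at 0.1, 0 and 0.14, and only the last exceeded the best other number (-0.02). Signs turned for some genes near 0, none of them called against Vector, and the cause was not tested. With 1 library left out the ranges were -1e-04 to 0.2387 for PLK4, -0.0124 to 0.2748 for REL, -0.003 to 0.1449 for IKBKB, -0.1956 to 0.2554 for PLA2G4C, -0.1331 to 0.3448 for TNFRSF9, -0.0711 to 0.0627 for HSP90AA1 and -0.5509 to 0.3228 for DNAH17. HSP90AA1 was also at -0.0019 without a filter and at -0.0053 with trends removed. Of 558 list medians under alternatives, 26 moved by more than 1 SD. Depth limits genes under 1 CPM.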
